A study of Sus scrofa with 90 samples.

Results

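MYLPF encodes the regulatory light chain of fast skeletal muscle myosin. On this array of porcine cDNAs, 34 features carry MYLPF as their only gene symbol, and the 18 of them with a value in every column of the deposited table are described here. The other 16 MYLPF features had no value in any column. Of all 4608 features listed, 1908 had a value in every column, which is 41.3% of the features other than MYLPF and 52.9% of the MYLPF features. The members are called by their feature number on the array list, and the rule takes every feature with this symbol and complete values, whatever its response.

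The light chain wraps the neck of each fast myosin heavy chain, next to the essential light chain, and stiffens the lever arm that swings during contraction. Phosphorylation of this light chain by skeletal muscle myosin light chain kinase raises the sensitivity of the fibre to calcium. MYLPF is a marker of fast fibres, and the Longissimus dorsi of the pig, the long muscle of the back, is made mostly of fast fibres.

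The samples came from 10 piglets, pig C to pig L, whose strain, sex and age the labels do not give. Each animal was injected 4 times with propylene glycol, a solvent used to carry drugs, at sites of the Longissimus dorsi chosen at random, and the injections were staggered to leave lesions 6 h, 2 d, 7 d and 21 d old, next to a site that received none. Control sites and the lesions aged 6 h and 2 d gave 10 samples each. The lesions aged 7 d (without pig J) and those aged 21 d (without pig L) gave 9 each. The control muscle came from the same injected animals, so it is not muscle of an untreated pig. Total RNA of each whole sample was labelled with 33P during reverse transcription and hybridised to 1 nylon array, so fewer cells of a type and less RNA per cell cannot be told apart.

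Several facts about the arrays touch every value below. Of 42 samples with a pair of columns, 41 held identical values in both, and each sample counted once. In the remaining sample, the 6 h lesion of pig J, 1 column copied the control of pig I and was left out. For pig F the 6 h array appears shifted along the list: its correlation with the average of all remaining arrays was 0.240 in place and 0.739 after a shift by 384 features. It was left out as well, which leaves 9 lesions aged 6 h and 47 arrays. The deposited values are logarithms of an unstated base and ran from -1.33 to 5.00, so differences are given in log units and not as folds. The spread of values within an array (SD over its features) was 0.976 ± 0.237 (SD, n = 10) for control muscle. It was 0.744 ± 0.0926 (n = 9) in 6 h lesions, 0.805 ± 0.0985 (n = 10) in 2 d lesions, 0.607 ± 0.158 (n = 9) in 7 d lesions and 0.643 ± 0.196 (n = 9) in 21 d lesions. Quantile normalization, used for all values unless the deposited scale is named, gives every array the same spread. Of the marker lists for other cell types, no feature was measured for neutrophils, macrophages, lymphocytes, erythrocytes, adipocytes or muscle precursors, so their part in the results was not tested. The single fibroblast marker feature (FN1, fibronectin) and the single endothelial one (PECAM1) were called at no age, with differences between -0.23 and -0.01 log units. Markers of mature muscle other than MYLPF (CKM, MYH1, MYH7, TNNT3 and TPM2) were measured by 23 features. Of these, 2 were called higher and 3 lower at 6 h, 0 and 0 at 2 d, 2 and 8 at 7 d, and 1 and 6 at 21 d. Of all features, 11.8%, 0.734%, 25.4% and 14.7% were called at these ages. The part of these markers in the MYLPF falls was not tested.

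The 18 MYLPF features did not move as 1 gene. On the normalized scale, features 6082 and 7944 rose at 6 h, 7 d and 21 d. Features 5355, 5475, 5772, 5942 and 6113 fell at 7 d, 6113 also at 6 h and 5475 also at 21 d. The other 11 features were called at no age. A feature was called where limma's moderated test, adjusted by the Benjamini-Hochberg method over all 1908 features of that comparison, gave an adjusted p below 0.05.

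At 6 h, 3 of the 18 MYLPF features were called (16.7%), 2 higher and 1 lower, where 11.8% of all features were called (6.92% higher and 4.87% lower). At 2 d none was called by limma or by an exact sign-flip test over animals, and 0.734% of all features were called. An unadjusted p below 0.05 was reached by 2 MYLPF features and by 8.91% of all features. At 7 d, 7 were called (38.9%), 2 higher and 5 lower, where 25.4% of all features were called (10.7% higher and 14.6% lower). At 21 d, 3 were called (16.7%), 2 higher and 1 lower, where 14.7% of all features were called (6.5% higher and 8.23% lower). The shares of MYLPF features called lay near those of the whole table at 6 h and 21 d, and above it at 7 d by a difference of few features. The exact sign-flip test over the same animals, whose smallest possible p is 0.0039 with 9 animals, called 0 MYLPF features at 6 h, 4 at 7 d and 0 at 21 d after adjustment over all features. The share of all features it called is not given here, so these counts cannot be read as a result about MYLPF.

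Counting every difference whether called or not, 6 of the 18 features were higher than control at 6 h, 8 at 2 d, 7 in the 7 d lesions and 8 in those of 21 d. By age, youngest first, their median difference was -0.11, -0.02, -0.05 and -0.06 log units, beside -0.02, -0.02, -0.01 and -0.00 over all features. On the deposited scale, the sign turned for 1 feature at 6 h, for 4 at 2 d, for 4 at 7 d and for 3 at 21 d. Features 6082, 7944, 7952 and 8389 were above control at all 4 ages. Features 5355, 5475, 5772, 5942, 6058, 6113 and 8390 were below it at all 4 ages, and the remaining 7 were mixed. The 4 ages share their control samples, so a run of the same sign over ages is not 4 independent results.

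**Figure D1:**
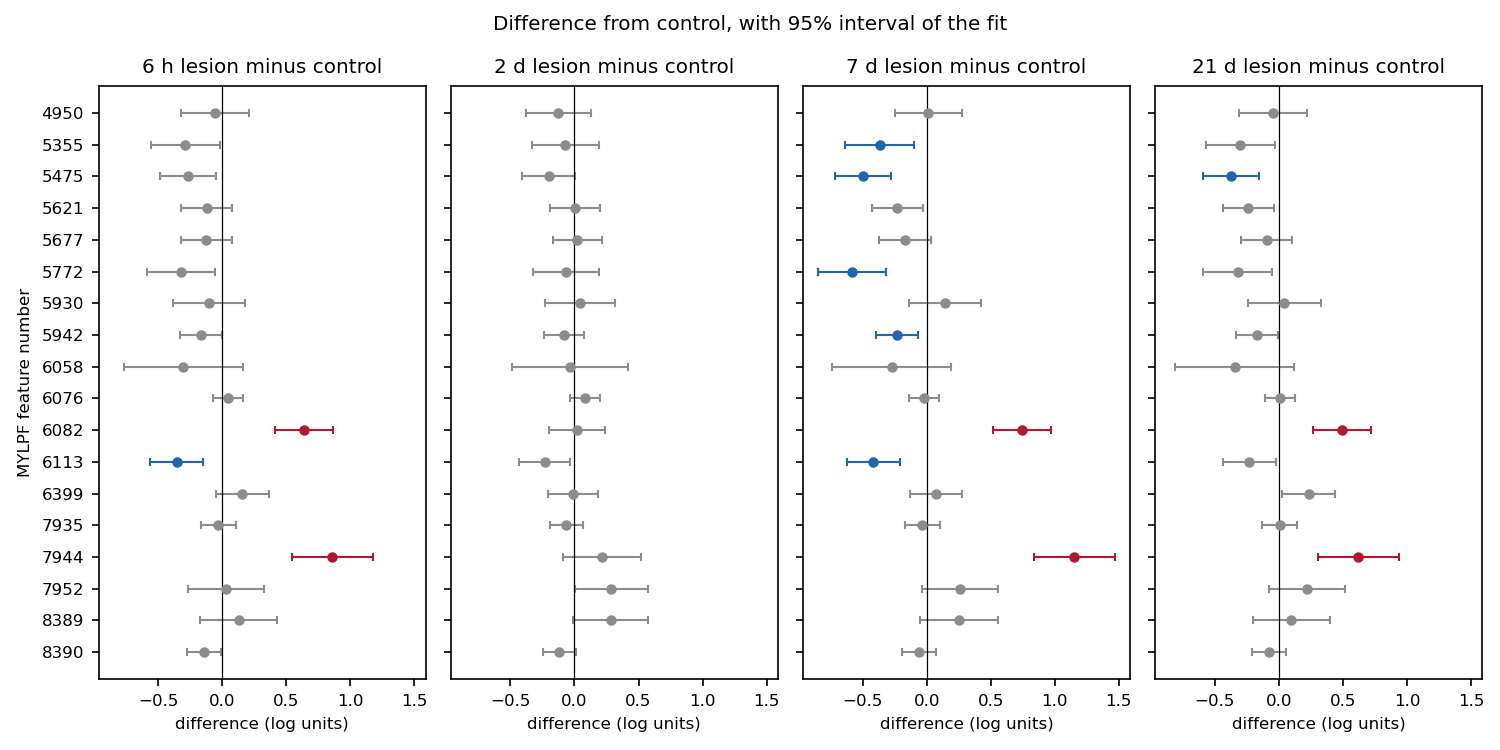
Difference from control (log units, quantile-normalized scale) of each of the 18 MYLPF features at the 4 lesion ages; points are the limma estimates and bars their 95% intervals, red for called higher, blue for called lower and grey for not called. At 7 d features 6082 and 7944 stand at 0.75 and 1.15 to the right of 0, while the 5 falling features lie between -0.58 and -0.23.

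Feature 7944 showed the largest difference of any MYLPF feature. Its normalized value in the controls ran from -0.02 through a median of 0.92 to 1.10 (mean 0.75 ± 0.40, SD, n = 10). The 6 h lesions ran from 1.30 through 1.53 to 1.78 (1.55 ± 0.18, n = 9), so every 6 h lesion lay above every control. The 2 d lesions ran from 0.31 through 0.95 to 1.76 (0.97 ± 0.38, n = 10) and overlapped the controls widely. The 7 d lesions ran from 1.63 through 2.03 to 2.13 (1.93 ± 0.20, n = 9), again without overlap with the controls. At 21 d the values spread from 0.37 through 1.46 to 2.18 (1.40 ± 0.57, n = 9), with pig J lowest and pig D highest, and overlapped the controls.

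The differences of feature 7944 from control were 0.86 log units at 6 h (standard error of the fit, SE, 0.157, adjusted p = 0.00017, higher in 9 of 9 animals), 0.21 at 2 d (adjusted p = 0.659, 5 of 10 animals), 1.15 at 7 d (adjusted p = 5.1e-07, 9 of 9) and 0.62 at 21 d (adjusted p = 0.00568, 8 of 9). The fall back at 2 d was itself tested. From 6 h to 2 d feature 7944 fell by 0.64 (adjusted p = 0.00684, 9 of 9 animals), and from 2 d to 7 d it rose by 0.94 (adjusted p = 2.8e-05, 9 of 9).

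Feature 6082 followed the same order of ages. Its controls ran from 0.46 through 0.77 to 1.13 (0.75 ± 0.21, n = 10). The 6 h lesions ran from 0.71 through 1.41 to 1.74 (1.38 ± 0.33, n = 9), with pig G lowest and inside the control range. The 2 d lesions, from 0.39 through 0.81 to 0.92 (0.77 ± 0.16, n = 10), lay within or below the control range. The 7 d lesions ran from 1.06 through 1.52 to 1.80 (1.49 ± 0.22, n = 9), and only the lowest of them, from pig C, fell below the highest control. The 21 d lesions ran from 0.97 through 1.16 to 1.94 (1.24 ± 0.31, n = 9), with pig D standing above the rest.

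The differences of feature 6082 were 0.64 log units at 6 h (SE 0.112, adjusted p = 0.00011, higher in 8 of 9 animals), 0.02 at 2 d (adjusted p = 0.939), 0.75 at 7 d (adjusted p = 3.5e-06, 9 of 9) and 0.49 at 21 d (adjusted p = 0.00214, 8 of 9). It fell by 0.61 from 6 h to 2 d (adjusted p = 0.00028, 8 of 9 animals) and rose by 0.72 from 2 d to 7 d (adjusted p = 7.5e-06, 9 of 9, with no overlap between those ages). Only these 2 MYLPF features were called in the step from 6 h to 2 d, in which 6.18% of all features were called (4.66% lower). In the step from 2 d to 7 d, where 16.5% of all features were called (9.43% higher and 7.02% lower), feature 5772 joined them and fell by 0.51 (adjusted p = 0.00492, 8 of 9 animals). From 7 d to 21 d limma called no MYLPF feature and 0.681% of all features (0.524% lower), and 2 had an unadjusted p below 0.05, as did 8.54% of all features. Those were 6082 (-0.25, adjusted p = 0.570) and 7944 (-0.53, adjusted p = 0.181).

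**Figure D2:**
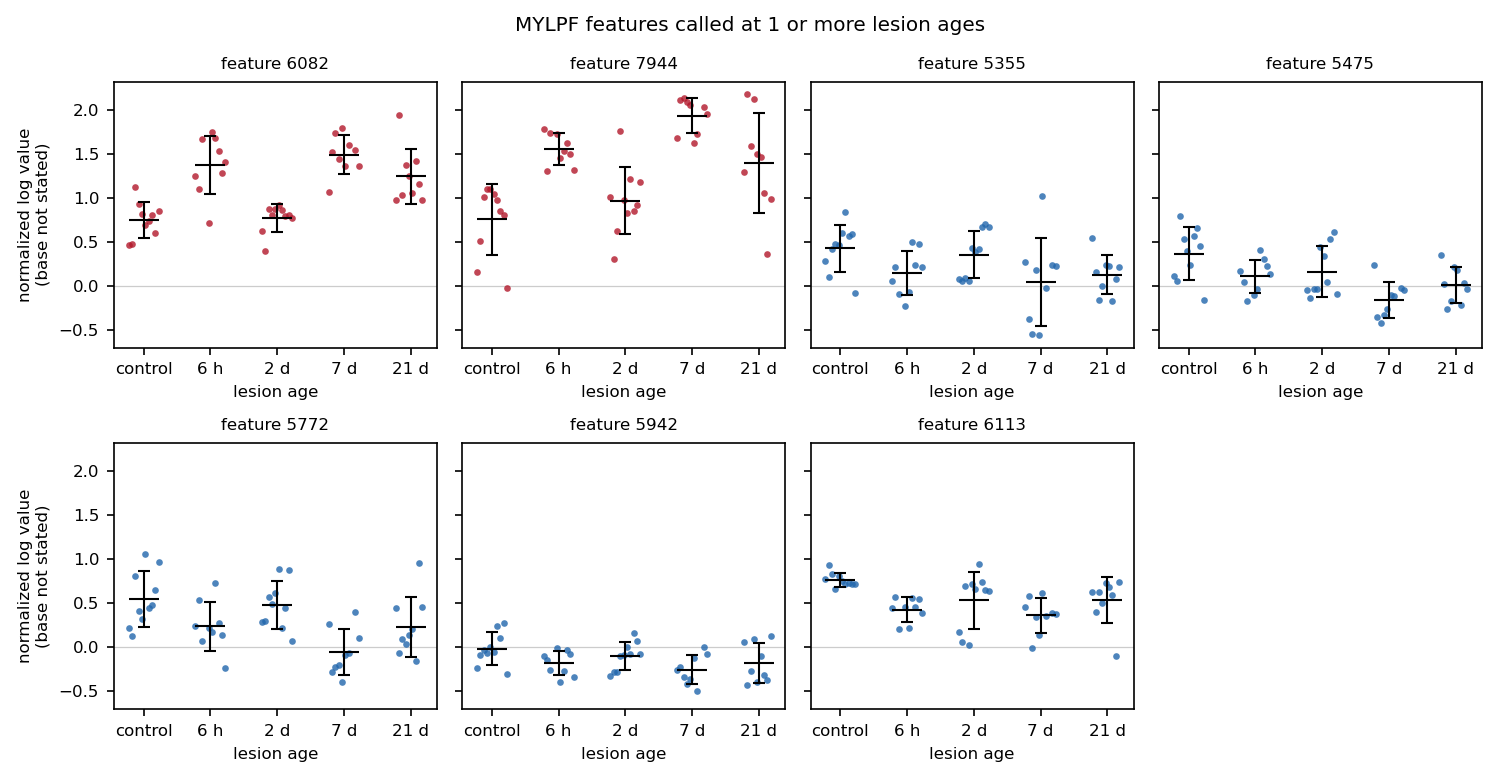
Normalized log value (base not stated) of the 7 MYLPF features called at 1 or more lesion ages, by lesion age; each dot is 1 muscle sample and the bars show mean and SD, red for the rising and blue for the falling features. Features 6082 and 7944 sit high at 6 h, 7 d and 21 d and near the controls at 2 d, while 6113 drops from a narrow control group.

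The rises of both features depended on how arrays were scaled. On the deposited scale feature 6082 averaged 1.06 ± 0.53 (SD, n = 10) for control muscle. Its lesions averaged 1.37 ± 0.41 (6 h, n = 9), 0.83 ± 0.23 (2 d, n = 10), 1.13 ± 0.32 (7 d, n = 9) and 0.98 ± 0.50 (21 d, n = 9). Feature 7944 averaged 1.19 ± 0.70, 1.50 ± 0.37, 1.02 ± 0.31, 1.52 ± 0.42 and 1.20 ± 0.67 in the same order. Both still stood highest at 6 h or 7 d and lowest at 2 d, but lesions and controls overlapped at every age.

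The step from 6 h to 2 d was also not called on the deposited scale, where 6082 changed by -0.54 (adjusted p = 0.171) and 7944 by -0.52 (adjusted p = 0.332). It was not called on median-centred arrays, nor with the 6 h array of pig F kept (-0.43 and -0.41). The step from 2 d to 7 d was not called for these features on the deposited scale either (0.33 and 0.51).

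In the fit of the deposited values, feature 6082 differed from control by 0.30 at 6 h (adjusted p = 0.263), 0.10 at 7 d (adjusted p = 0.704) and -0.11 at 21 d (adjusted p = 0.685). Feature 7944 differed by 0.36 (adjusted p = 0.284), 0.34 (adjusted p = 0.252) and -0.02 (adjusted p = 0.961). Neither was called at any age, and the sign at 21 d turned for both. Centring each array on its median without equalising the spread gave 0.31 and 0.36 at 6 h for 6082 and 7944. At 7 d it gave 0.12 and 0.36, and neither feature was called at these ages. This centring called 2 other MYLPF features higher at 7 d.

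When each centred array was divided by its own SD, both features were again called at 6 h and 7 d, and 7944 at 21 d, while 6082 at 21 d was not (adjusted p = 0.0678). With the array SD as a covariate of the normalized values, both kept their calls at 6 h, 7 d and 21 d, with differences of 0.67, 0.80 and 0.55 for 6082 and 1.06, 1.45 and 0.91 for 7944. Both rises are therefore stated relative to the spread of the values on each array. Over all features, going from normalized to deposited values turned the calls at 6 h from 132 higher and 93 lower to 103 higher and 393 lower. At 21 d it turned them from 124 and 157 to 178 and 530.

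**Figure D3:**
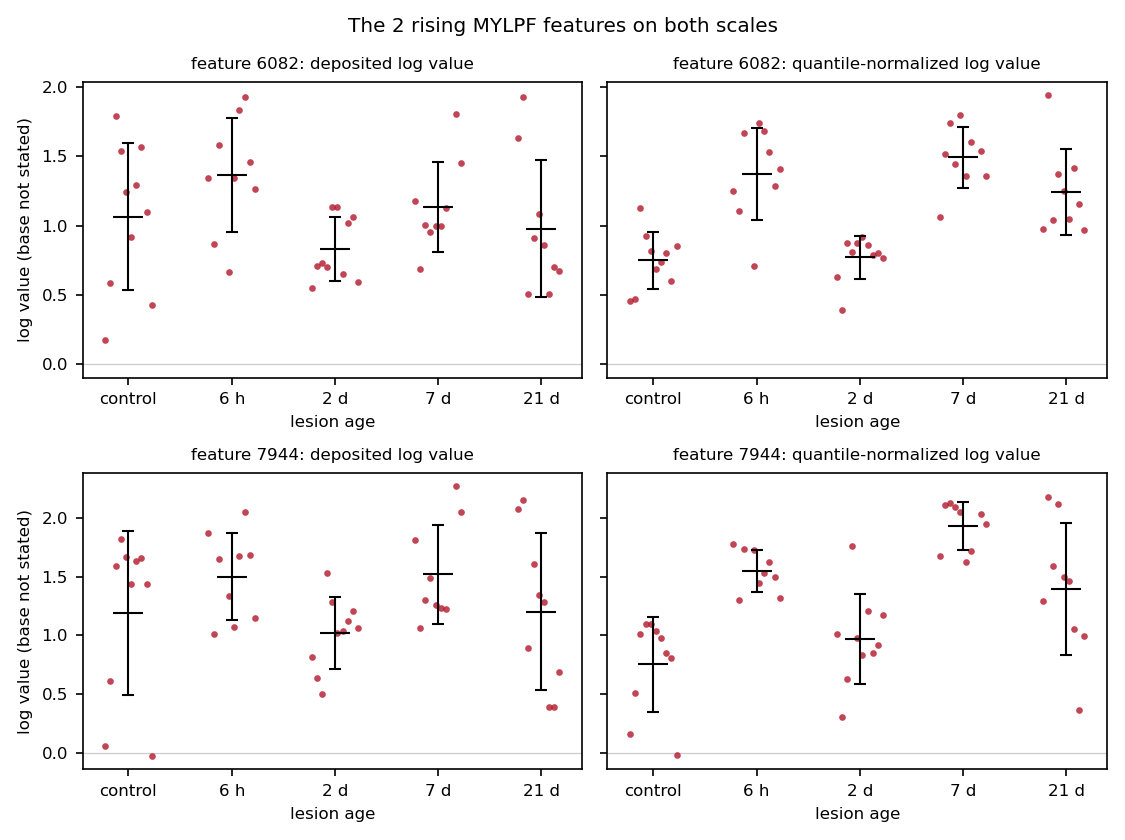
Features 6082 and 7944 by lesion age, on the deposited log scale (left) and after quantile normalization (right); each dot is 1 muscle sample and the bars show mean and SD. On the left the control values of 6082 spread from 0.17 to 1.79 and cover most lesions, and on the right they spread from 0.46 to 1.13 and lie below most lesions of 6 h and 7 d.

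Feature 6113 showed the clearest fall. Its controls were closely grouped, from 0.66 through 0.74 to 0.93 (0.77 ± 0.08, n = 10). The 6 h lesions ran from 0.21 through 0.45 to 0.57 (0.43 ± 0.14, n = 9) and the 7 d lesions from -0.01 through 0.38 to 0.61 (0.36 ± 0.20, n = 9), all below the lowest control. The 2 d lesions ran from 0.03 through 0.66 to 0.95 (0.53 ± 0.32, n = 10). They fell into a low set (pigs C, D and F, up to 0.18) and a set within or near the control range. At 21 d the values ran from -0.10 in pig J to 0.74 (0.53 ± 0.26, n = 9).

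The fall of 6113 was 0.36 log units at 6 h (difference -0.36, SE 0.103, adjusted p = 0.0186, lower in 9 of 9 animals) and 0.42 at 7 d (-0.42, adjusted p = 0.00221, 9 of 9). The differences at 2 d (-0.23, adjusted p = 0.430, 8 of 10) and 21 d (-0.23, adjusted p = 0.135, 8 of 9) were not called. The call at 6 h was lost without pig E (adjusted p = 0.0616) or without pig H (adjusted p = 0.0519). With the array SD as a covariate both calls of 6113 were lost (-0.33 and adjusted p = 0.0765 at 6 h, -0.37 and adjusted p = 0.0518 at 7 d). On the deposited scale its falls were larger and called at 6 h, 7 d and 21 d (-0.59, -0.72 and -0.63).

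Feature 6113 and feature 7944 were thus the 2 MYLPF features whose lesion and control values did not overlap at 6 h and again at 7 d, in opposite directions. Of all features, 2.46% were free of overlap at 6 h and 4.66% at 7 d. No MYLPF feature was free of overlap at 2 d or 21 d, where 0.262% and 1.42% of all features were.

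Feature 5475 had controls from -0.16 through 0.42 to 0.80 (0.36 ± 0.30, n = 10). Its 7 d lesions ran from -0.42 through -0.12 to 0.24 (-0.16 ± 0.21, n = 9) and its 21 d lesions from -0.27 through 0.02 to 0.35 (0.01 ± 0.21, n = 9). Most lesions of these ages lay below most controls, with overlap in both. The differences were -0.50 at 7 d (SE 0.107, adjusted p = 0.00051, lower in 7 of 9 animals) and -0.37 at 21 d (adjusted p = 0.0151, 8 of 9). The differences at 6 h and 2 d were -0.27 (adjusted p = 0.0980) and -0.20 (adjusted p = 0.581).

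With the array SD as a covariate, 5475 was called at neither age (-0.15 and adjusted p = 0.367 at 7 d, -0.03 and adjusted p = 0.901 at 21 d). The call at 21 d was also lost without pig E, F, I or J (adjusted p from 0.0529 to 0.0712).

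Feature 5772 had controls from 0.13 through 0.46 to 1.06 (0.55 ± 0.31, n = 10) and 7 d lesions from -0.40 through -0.09 to 0.40 (-0.05 ± 0.26, n = 9). Every 7 d lesion lay below the control median, with overlap in the lower part of the control range. The difference was -0.58 (SE 0.132, adjusted p = 0.00091, lower in 8 of 9 animals), the largest fall of a MYLPF feature, and it was called under each of the scalings run, the array SD covariate included (-0.49, adjusted p = 0.0436). At 6 h and 21 d the differences were -0.32 and -0.32 (adjusted p = 0.104 and 0.0983).

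Features 5942 and 5355 passed the threshold at 7 d by little. Feature 5942 went from -0.02 ± 0.19 in the controls (n = 10, -0.31 to 0.28) to -0.26 ± 0.16 at 7 d (n = 9, -0.50 to 0.00), a difference of -0.23 (SE 0.0808, adjusted p = 0.0319, 8 of 9 animals). Feature 5355 went from 0.43 ± 0.27 (n = 10, -0.09 to 0.84) to 0.05 ± 0.50 (n = 9, -0.57 to 1.02), a difference of -0.37 (SE 0.133, adjusted p = 0.0382, 7 of 9 animals). In both the groups overlapped over most of their range.

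The call of 5942 was lost without pig E, F, G, I or K (adjusted p from 0.0644 to 0.155). That of 5355 was lost without pig D, E, F, G, I, J or K (adjusted p from 0.0520 to 0.158). Neither was called with the array SD as a covariate, where 5355 came to -0.01 and 5942 to -0.08.

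The other 11 features were called at no age on the normalized scale. Feature 6058 had a mean of 1.51 ± 0.35 in the controls (n = 10) and lay below control at every age (-0.34 to -0.03 log units), with the widest errors of any MYLPF feature (SE 0.223 to 0.230). Feature 5621, at 1.33 ± 0.14 in the controls (n = 10), differed by -0.23 at 7 d (adjusted p = 0.0872) and -0.24 at 21 d (adjusted p = 0.105). Feature 6399 was higher by 0.16 at 6 h in 8 of 9 animals (adjusted p = 0.341) and by 0.23 at 21 d (adjusted p = 0.119).

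Features 7952 and 8389 were each above control by 0.28 to 0.29 at 2 d and by 0.25 to 0.26 at 7 d, none called. Features 4950, 5677, 5930, 6076, 7935 and 8390 stayed within 0.17 log units of control at every age. Feature 6076 had the smallest error (SE 0.059 at 7 d, difference -0.02, 95% interval -0.14 to 0.10), an interval that does not reach the differences of 6082 or 7944 at that age.

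Whether 2 MYLPF features responded differently was tested directly. For each of the 153 pairs and each age, the lesion-minus-control difference of 1 feature was set against that of the other within each animal, by an exact two-sided sign-flip permutation test over animals, adjusted over all 612 tests. The test passed for 36 pairs at 6 h and 43 at 7 d, but for 2 at 2 d and 22 at 21 d. It was run on MYLPF pairs only, so no share over pairs of all features stands beside these counts. Of the 103 results that passed, 76 held feature 6082 or 7944, which were in 132 of the 612 tests. These 2 features were set apart by their calls on the same normalized values, which in part fixes that count.

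Rising and falling features differed from each other in 10 of 10 pairs at 6 h, 0 of 10 at 2 d, 10 of 10 at 7 d and 9 of 10 at 21 d, counts that the choice of the pairs by their calls at 7 d in part fixes. Between 7944 and 6113 the gap at 7 d was 1.60 log units, in 9 of 9 animals (exact p = 0.0039, the smallest possible, adjusted p = 0.0323). None of the 10 pairs of falling features differed at any age, the largest gap being 0.38 at 7 d. Features 6082 and 7944 differed by 0.19 at 6 h (exact p = 0.309) and by 0.44 at 7 d (exact p = 0.0312, adjusted p = 0.117), with the larger rise in 7944.

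Members close together on the list gave different answers. Features 6076 and 6082 lie 6 places apart, and the response of 6082 was larger by 0.61 at 6 h (adjusted p = 0.0464, 8 of 9 animals) and by 0.78 at 7 d (adjusted p = 0.0323, 9 of 9). Features 7935 and 7952 lie 9 and 8 places from 7944. The response of 7944 was larger than that of 7935 by 1.23 and than that of 7952 by 0.97 at 7 d (adjusted p = 0.0323 for each, 9 of 9 animals). Even neighbours 8389 and 8390 differed at 2 d, by 0.40 (adjusted p = 0.0464). The members set against 6082 and 7944 here had lower signal. Their control means were -0.40 for 6076, -0.31 for 7935 and -0.14 for 7952, against 0.75 for 6082 and for 7944. The part of signal level in these gaps was not tested.

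How far the 18 features moved together was also measured over single arrays. Over 47 arrays the median Pearson r of the 153 pairs was 0.00078, from -0.680 to 0.737, and 78 pairs were positive. The median over all 1819278 pairs of the 1908 features was -0.013. The median of the MYLPF pairs thus lay close to that of all pairs. By a permutation test (100000 permutations, adjusted over the 153 pairs) 18 pairs were positively and 20 negatively correlated at an adjusted p below 0.05, which is 24.8% of the MYLPF pairs. Of all pairs of features, 22.2% had an r at least as far from 0 as the weakest of these, so the share was near the background.

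After the means of group and animal were taken out, the median r was -0.035, with 19 pairs positively and 15 negatively correlated (22.2%, beside 26.5% of all pairs at least as far from 0). Arrays share their overall scale and animals contributed several arrays each, and the permutations do not take account of that.

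**Figure D4:**
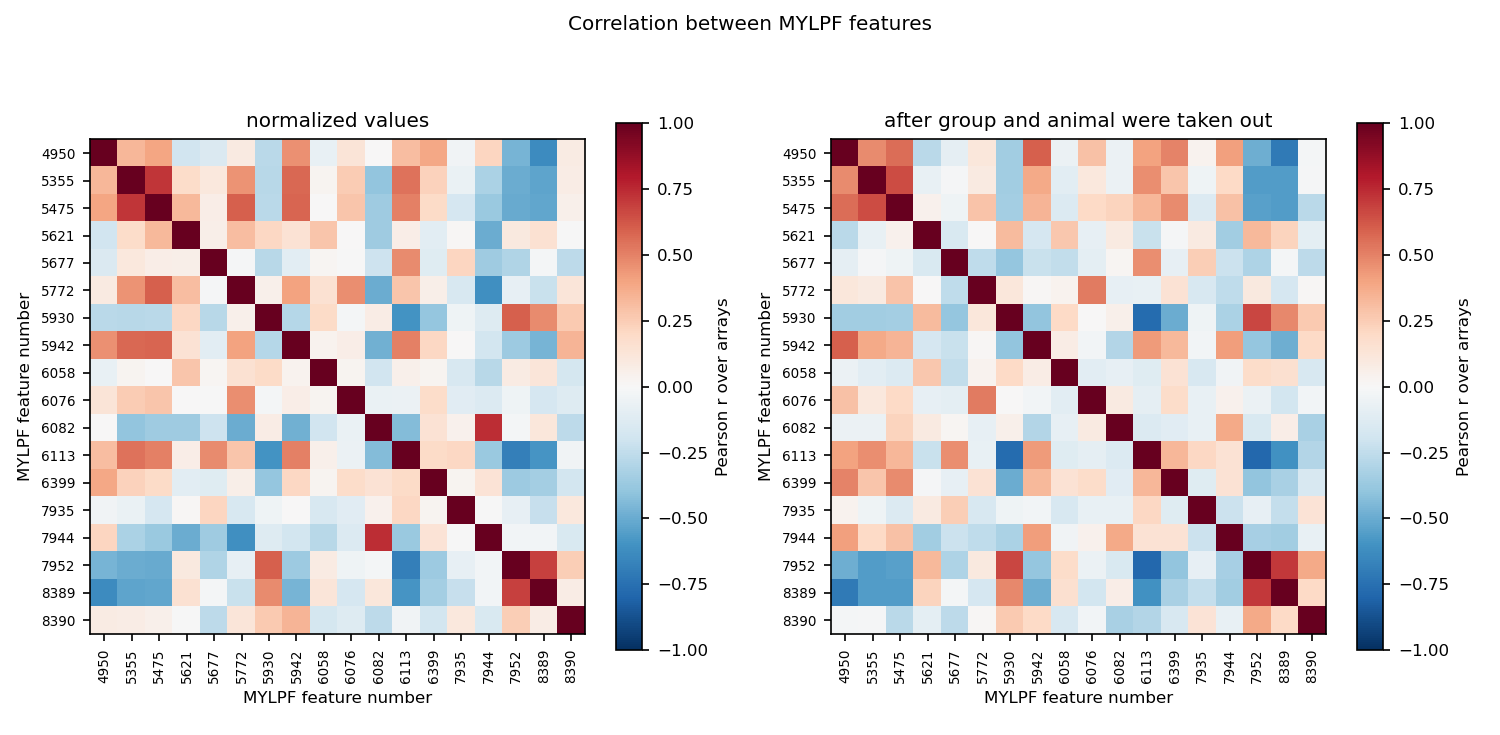
Pearson r between each pair of the 18 MYLPF features over 47 arrays, for normalized values (left) and after group and animal means were taken out (right); red is positive and blue negative. Red blocks join 5355 with 5475 and 7952 with 8389, blue cells set 6113 against 5930, 7952 and 8389, and the cell of 6082 with 7944 is paler on the right (0.382) than on the left (0.737).

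The highest correlation was between the rising features 6082 and 7944 (Pearson r = 0.737, Spearman rho = 0.723, permutation adjusted p = 0.00019 and 0.00031, r = 0.703 without the 2 arrays farthest from the median of 6082). After the means of group and animal were both taken out it was r = 0.382 (adjusted p = 0.0398) and rho = 0.265 (adjusted p = 0.194), and to r = 0.239 without the 2 farthest arrays. With the group means alone taken out r was 0.373, and with the animal means alone it was 0.786, so the drop came with the group means.

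The falling features 5355 and 5475 correlated at r = 0.716 (rho = 0.777, r = 0.811 without the 2 farthest arrays). They kept r = 0.649 (rho = 0.728) after group and animal were taken out, so they moved together also among arrays of 1 group. Features 7952 and 8389, never called, did likewise (r = 0.681 and rho = 0.439, then 0.706 and 0.547, and r = 0.578 without the 2 farthest arrays). Feature 6113 ran against 7952 (r = -0.680 and rho = -0.479, then -0.789 and -0.669, and r = -0.646 without the 2 farthest arrays). For each of these 3 pairs the permutation adjusted p was 0.00019 for r and at most 0.0107 for rho. The 4 pairs that set 5355 or 5475 against 7952 or 8389 were negative as well (r from -0.527 to -0.493, then from -0.562 to -0.543). These pairs were picked after their values were seen, among the strongest of the 153. The kept arrays also differed in their correlation with the average of all remaining arrays. For the array with the highest 7952 value it was 0.923 in controls (pig L) and 0.894 at 6 h (pig H). It was 0.858 at 2 d (pig F), 0.817 at 7 d (pig G) and 0.718 at 21 d (pig J), the lowest of the 47. The part of array quality in these correlations was not tested.

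Position on the feature list went with these patterns. The list was divided into 4 spans of equal length, chosen after the values were seen. At 7 d, 22.2% of the measured features of the first span and 19.1% of those of the second were called lower, against 0.951% in the third and 0% in the fourth. In the same order 8.62%, 7.36%, 18.3% and 4.76% were called higher. All 5 falling MYLPF features lie in the first 2 spans, which hold 13 of the 18, and rising feature 6082 lies in the second and 7944 in the third. The MYLPF falls thus come from the stretch of the list where falls were common, and the part of position in them was not tested. After a running median over neighbouring features of the list was subtracted from each array, 5475, 5772 and 6113 were still called lower at 7 d (-0.39, -0.45 and -0.38) and 5355 and 5942 were not (adjusted p = 0.248 and 0.270). Features 6082 and 7944 were still called at 6 h and 7 d, and 7944 at 21 d was not (0.45, adjusted p = 0.144).

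Features exactly 384 places apart were more alike than others. Their median r was 0.427 over 910 pairs, against 0.237 over 1820 pairs at 383 or 385 places and 0.251 for the next measured feature on the list. For 14 MYLPF features a measured partner lay 384 places before or after, 22 partners in all, and every one of the 22 correlated positively with its MYLPF feature (median r 0.54, from 0.075 to 0.785). The partners of 5355, feature 4971 (r = 0.742) and feature 5739 (r = 0.665), were called lower at 7 d as well (-0.67 and -0.51). Those of 5772 were at -0.31 (5388, called) and -0.17 (6156, not called). Of the other falling features, the partners of 5475 (-0.18 and -0.08) and 5942 (-0.07) were not called, while 6113 had 1 called (-0.35) and 1 not called (-0.13). Among those of features never called, 1 partner of 5677 was called higher (6061, 0.33) and 1 lower (5293, -0.27). A partner of 5621 was also called lower (5237, -0.42). Of all features, 25.4% were called at 7 d. The 1 partner of 7944, feature 7560, was at 0.03 and not called (r = 0.370), and feature 6082 had no measured partner. These distances were also chosen after the values were seen, and the part of position on the array in the correlations was not tested.

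Next to 7944 on the list, feature 7942, which carries no symbol, rose by 1.32 at 7 d (adjusted p = 2.9e-11) and correlated with 7944 at r = 0.863. The feature between them, 7943, rose by 0.29 (adjusted p = 0.0023, r = 0.619), while 7945 and 7946 on the other side were not called (0.19 and 0.20). None of the 4 measured features nearest to 6082 was called (-0.21 to 0.00). Of the 4 nearest to 5475, 5474 fell by 0.26 and 5476 by 0.32 (r = 0.752 and 0.862), 5473 rose by 0.29 (r = -0.028) and 5477 was not called (-0.09). Of the 4 nearest to 6113, 3 fell (by 0.46 to 0.54). Near the other falling features, 5769 and 5773 (by 5772), 5947 (by 5942) and 5361 (by 5355) were called lower (-0.60 to -0.33). The rest of their nearest 4 were not called. Features never called had called neighbours too, such as 4953 near 4950 (-0.53) and 7954 near 7952 (1.21). Of all features, 25.4% were called at 7 d.

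The features with a gene symbol whose pattern was most like a MYLPF feature were sought among the other 205 by Pearson r over the 47 arrays, as a description. Of the 54 places (3 for each MYLPF feature), 5 went to another MYLPF feature (9.26%), where other MYLPF features were 8.29% of those searched. CKM, muscle creatine kinase, took 6 of the 54, with 10 features among the 205 searched. Feature 6082 was most like XIRP2, an actin-binding protein of muscle (r = 0.757), HSPE1, the small mitochondrial chaperonin (r = 0.750), and 7944 (r = 0.737). Feature 7944 was most like UGP2, which makes UDP-glucose for glycogen (r = 0.766), then 6082 and XIRP2 (r = 0.689).

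The falling features had other company. Feature 5355 was most like FN1 (r = 0.893), 5475 like a CKM feature exactly 384 places away (r = 0.785), 5772 like GSTO1, a glutathione transferase (r = 0.628), 5942 like the muscle enolase ENO3 (r = 0.717) and 6113 like the ribosomal protein RPL11 (r = 0.691) and CKM (r = 0.683). Feature 8389 was most like BTG2 (r = 0.856) and ACTB, cytoplasmic actin (r = 0.842), and 7935 was most like PRKACA, also exactly 384 places away (r = 0.565).

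The other light chains of myosin were called at no age. The single feature of MYL1, the essential light chain of fast fibres, differed from control by -0.08, -0.08, 0.05 and -0.12 with increasing lesion age. The 2 features of MYL2, the regulatory light chain of slow fibres and heart, differed by -0.09 to 0.08. None of these 3 features was called (adjusted p at least 0.320), and no feature of a myosin light chain kinase was measured.

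Of 27 features for 8 fast sarcomere genes other than MYLPF, 0 rose and 2 fell at 6 h, 0 and 0 changed at 2 d, 0 rose and 6 fell at 7 d and 0 rose and 3 fell at 21 d, with a median difference of 0.00 at 7 d. Those 2, 6 and 3 are to be read against 11.8%, 25.4% and 14.7% of all features called at these ages. All but 1 of the falls were features of TNNC2, the calcium-binding troponin of fast fibres. TNNC2 feature 5336 fell by 0.36, 0.49 and 0.43 at 6 h, 7 d and 21 d. The exception was feature 7659 of TNNT3, fast troponin T, which fell by 0.18 at 7 d, while TNNT3 feature 6977 was at -0.03 and not called. The TNNC2 features that fell lie in the first span of the list, where falls were common. MYOZ1 is a Z disc protein of fast fibres. Its feature 7646, picked after its values were seen and outside the naming rule below, was at 0.37, -0.02, 0.21 and 0.35 with increasing lesion age. It was also lowest at 2 d but not called (adjusted p = 0.0643 at 6 h and 0.0717 at 21 d). MYOZ1 feature 5345 lay below control at every age (-0.47, -0.34, -0.50 and -0.24), and MYOZ1 feature 6530 stayed between -0.05 and 0.04, neither called.

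Of 9 features for 5 slow sarcomere genes, 1 rose and 1 fell at 6 h and at 7 d and 1 rose and 2 fell at 21 d. The riser and 1 faller were both MYH7, the slow myosin heavy chain, at 0.47 (feature 5503) and -0.59 (feature 4799) at 7 d. Of 16 features for 3 shared sarcomere genes, 1 rose and 2 fell at 6 h, 1 rose and 6 fell at 7 d and 0 rose and 5 fell at 21 d. Among them were CKM features and feature 6108 of the tropomyosin TPM2 (-0.46 at 7 d). TPM2 features 7105 and 7957 were at 0.16 and -0.004 at 7 d and not called. The same shares of all features, 11.8%, 25.4% and 14.7%, stand beside these counts. No feature of these lists was called at 2 d.

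Other genes with 4 or more features, chosen for that number, were compared at 7 d. There were calls in both directions for CKM and MYH7, and not for TNNC2, ACTB, GAPDH or MYH1. The 10 CKM features gave 1 rise and 5 falls, with an SD over features of 0.27 log units, and the 4 MYH7 features gave 1 rise and 1 fall (SD 0.44). The 12 TNNC2 features gave 5 falls and no rise (SD 0.24), the 7 ACTB features 1 rise (SD 0.11), and the 5 GAPDH and 4 MYH1 features no call (SD 0.14 and 0.16). The SD over the 18 MYLPF features was 0.43, in the upper part of this range.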

How the data were processed

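Per the labels, RNA of 48 muscle samples was labelled with 33P and hybridised to 1 nylon cDNA array each, which was read by phosphor imaging at 25 micrometre resolution. The authors deposited 1 value per feature and column on a log scale, a unit other than counts or intensities. Its base, the background correction and the centring are not given in the sources used here. Gene symbols come from GEO's platform annotation, and 204 of 206 identifiers matched the current gene table. Clone sequences were not used here.

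Columns of 1 sample were averaged. Over all 48 samples, array medians ranged over 0.112 (0.0120 to 0.124), with the left-out 6 h array of pig F lowest. The array SD averaged 0.976 in controls and 0.607 in 7 d lesions. Values of the 47 arrays were quantile-normalized, which equalises medians and spread. Then limma 3.58.1 in R 4.3.3 (lmFit, eBayes) was fitted over all 5 groups with animal as a fixed block. Tests were two-sided, with Benjamini-Hochberg adjustment over 1908 features within each comparison. The fit was tested on simulated data with normal noise. Of features changed by 0.3 log units, 48%, 34%, 49% and 28% were recovered at 6 h, 2 d, 7 d and 21 d. Of those changed by 0.6, 94%, 92%, 89% and 92% were. A difference near 0.3 that was not called is therefore not shown to be absent. The design text places a control and each lesion age in every pig, so the animal pairs the samples. Deviations from group means correlated at a median r of -0.0236 within an animal and -0.00355 between animals, and the pairing is taken from the design text alone. Arrays carry no count of molecules, and their number limits the precision.

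All MYLPF features with complete values were described. From the other lists (fast fibre, slow fibre and shared sarcomere, myosin light chains and kinases), genes called with 1 sign in at least 80% of animals were eligible for naming, up to 4 per list and comparison, and all myosin light chains. The members and lists were chosen with earlier results of these data known. Pair tests used scipy 1.17.1. Alternatives were other scalings, the array SD as a covariate, a local trend, other blocks and weights, bright features only, and each animal left out.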

Additional observations from a re-analysis of the deposited data

Results flagged for a closer look

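Of 90 groups of MYLPF values (18 features at control and 4 ages), 12 had 1 sample far from the others, where chance gives about 1 in 20. Standing above their group were pig L for 5677 at 6 h (0.589), pig I for 5677 at 21 d (0.786), pig H for 5930 at 6 h (0.414), pig L for 6076 at 7 d (-0.272), pig D for 6082 at 21 d (1.94), pig H for 6399 at 21 d (0.830), pig F for 7935 at 21 d (0.0275), pig J for 7952 at 21 d (0.851) and the control of pig K for 8390 (0.0281). Standing below their group were pig K for 6058 at 2 d (-0.215, with the next value at 1.35), pig J for 6113 at 21 d (-0.0954) and pig L for 7935 at 7 d (-0.563). The 21 d lesions hold 6 of the 12, and in pig J 6113 stood low and 7952 high, the pair that correlated most negatively.

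The response changed between lesion ages, by limma's test of the step itself, in 3 features. From 6 h to 2 d feature 6082 moved by -0.61 and 7944 by -0.64. From 2 d to 7 d feature 6082 moved by 0.72, 7944 by 0.94 and 5772 by -0.51.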

How the results depend on the processing

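Counts of MYLPF features called, in the order 6 h, 2 d, 7 d and 21 d against control, were 3, 0, 7 and 3 (higher and lower: 2 and 1, 0 and 0, 2 and 5, 2 and 1). On deposited values none was higher at any age, and 6, 0, 7 and 6 were lower. On median-centred arrays 0 were higher and 6 lower at 6 h, and 1 and 1 at 2 d. At 7 d the counts were 2 and 6, and at 21 d they were 1 and 6. The 2 called higher at 7 d were not the 2 that rose on the normalized scale. Median-centring called 518, 57, 782 and 742 of all 1908 features at these ages. Division by the array SD gave 5 at 21 d, the array SD as a covariate gave 3 at 7 d, and fitting only the compared groups gave 1 at 21 d. Of all 1908 features these settings called 275, 265 and 178 at the same ages. Array weights gave 8 at 6 h and 6 at 21 d, where 615 and 384 of all 1908 features were called. Bright features only gave 5 at 6 h, where 295 of 954 features were called. The exact sign-flip test gave 0, 0, 4 and 0, with no share over all features given beside it.

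The step from 6 h to 2 d went from 2 features to 0 on deposited values, 0 on median-centred arrays and 0 with the 6 h array of pig F kept. Calls over all features in that step went from 118 to 40, 43 and 88. The step from 2 d to 7 d went from 3 to 1 on deposited values, 1 on median-centred arrays, 8 with array weights and 5 with bright features only. Calls over all features in that step went from 314 to 127, 177, 467 and, among 954 bright features, 314. Leaving out each animal gave 2 to 4 features at 6 h, 0 at 2 d, 5 to 7 at 7 d, 2 to 4 at 21 d, 2 and 3 to 4 for those steps, and 0 to 1 from 7 d to 21 d, the 1 without pig D. Without the replicate block all 18 called differences were called again, with counts of 3, 0, 7 and 3, so the block changed no call of these.

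At 21 d feature 6082 reversed to -0.105 on deposited and -0.0808 on median-centred values, and 7944 to -0.0157 on deposited values. The cause was not tested. With pig F kept, 7944 at 21 d (0.62, adjusted p = 0.0564) and both steps from 6 h to 2 d (-0.43 for 6082 and -0.41 for 7944) were no longer called. Over all features, deposited values moved the calls from 225 to 496 at 6 h, 14 to 28 at 2 d, 484 to 744 at 7 d and 281 to 708 at 21 d, and the array SD covariate to 265 at 7 d and 111 at 21 d.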
